A study of Mus musculus with 4 samples.

Results

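The common gamma chain cytokine receptors were read in transferred CD8+ T cells as 8 gene rows chosen by name, Il2ra, Il2rb, Il2rg, Il4ra, Il7r, Il9r, Il15ra and Il21r, out of 24062 rows in the counts table. All 8 had at least 1 read, and 7 passed the filter on low counts. Il9r did not. The cells were gBT-I cells, transgenic CD8+ T cells specific for residues 498 to 505 of herpes simplex virus glycoprotein B. Splenocytes of SPF (specific pathogen free) gBT-I donors were activated in culture with that peptide and LPS, were given IL-1 (as the labels spell it) on days 2 and 3, and were injected intravenously on day 4. The labels give the same kind of donor and the same culture steps for both groups, and do not say whether the cultures themselves were shared. One group had SPF C57BL/6 recipients and the other GF (germ free) C57BL/6 recipients, with 2 libraries each, made from gBT-I cells sorted from the spleen 7 days after transfer. Whether a library is 1 mouse or a pool, and the age of the mice, were not stated in the labels, so the p-values reflect the spread between libraries and nothing more.

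The receptors of this family share 1 signalling subunit, the common gamma chain encoded by Il2rg. It pairs with the IL-2 receptor beta chain (Il2rb) to signal for IL-2 and IL-15, with the IL-4 receptor alpha chain (Il4ra), with the IL-7 receptor alpha chain (Il7r), and with the receptors for IL-9 (Il9r) and IL-21 (Il21r). Il2ra (CD25) and Il15ra raise the affinity for their ligands and carry little signal themselves, and IL-15 is mostly presented in trans by neighbouring cells that hold it on IL-15R alpha. JAK3 binds the gamma chain and JAK1 the partner chains, and together they phosphorylate STAT5 and other STAT proteins. In CD8+ T cells, IL-2 drives effector expansion, and IL-7 and IL-15 maintain memory cells.

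The genes lie at 6 places in the genome. In mm10 coordinates of GENCODE, Il2ra (11642807 to 11693193, 8 exons in the principal transcript) and Il15ra (11705290 to 11734317) are neighbours on chromosome 2, both on the plus strand. Il4ra (125552120 to 125579474) and Il21r (125603429 to 125633570) are neighbours on the plus strand of chromosome 7. Il7r (9505788 to 9530176) and Il2rb (78479256 to 78495271) lie far apart on the minus strand of chromosome 15, Il9r (32187541 to 32200279) lies on chromosome 11, and Il2rg (101264378 to 101268255) on chromosome X. The annotated exons of Gm20489, on the same strand, cover 728 nt of the Il2rg exons, and the antisense gene Gm44876 covers 571 nt of the Il4ra exons. Reads there cannot be told apart without strand or unique sequence, and neither of these genes is a row of the counts table.

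The bases before the start sites are shown for the pair of genes with the highest levels per length that is described next (Il2rg and Il7r), and for the tested members with lower levels whose start regions held a motif searched (Il21r and Il15ra). Each line gives the 250 bases before the RefSeq start site in GRCm38.p6, 5′ to 3′ on the gene's strand, with matches in capitals.
Il2rg (chrX:101268256-101268505, minus strand): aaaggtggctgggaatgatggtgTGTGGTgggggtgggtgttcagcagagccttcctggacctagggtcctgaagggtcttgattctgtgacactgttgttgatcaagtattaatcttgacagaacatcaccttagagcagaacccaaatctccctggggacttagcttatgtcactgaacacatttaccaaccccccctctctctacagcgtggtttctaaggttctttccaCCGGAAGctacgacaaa
Il7r (chr15:9529877-9530126, minus strand): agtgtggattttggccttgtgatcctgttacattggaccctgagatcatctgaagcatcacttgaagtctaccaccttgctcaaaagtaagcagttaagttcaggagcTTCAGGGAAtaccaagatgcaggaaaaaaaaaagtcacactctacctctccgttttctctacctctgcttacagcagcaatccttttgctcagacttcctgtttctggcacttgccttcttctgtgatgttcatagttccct
Il21r (chr7:125603179-125603428, plus strand): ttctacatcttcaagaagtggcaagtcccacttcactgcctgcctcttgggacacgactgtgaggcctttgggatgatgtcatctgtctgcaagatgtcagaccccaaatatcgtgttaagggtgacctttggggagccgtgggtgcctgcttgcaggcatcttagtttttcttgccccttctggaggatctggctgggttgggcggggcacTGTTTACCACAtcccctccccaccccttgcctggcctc
Il15ra (chr2:11705043-11705292, plus strand): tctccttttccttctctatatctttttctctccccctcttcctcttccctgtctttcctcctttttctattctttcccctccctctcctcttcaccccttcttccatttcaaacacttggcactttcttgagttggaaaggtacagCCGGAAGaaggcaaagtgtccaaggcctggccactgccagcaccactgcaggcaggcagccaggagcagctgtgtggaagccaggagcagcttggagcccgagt

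A promoter entry was matched for 7 of the 8 genes, all but Il2rb. On both strands, the searches were for the STAT-binding GAS element TTCNNNGAA, the ETS motif CCGGAAG, the FOXO motif TGTTTAC, the RUNX motif TGTGGT, the AP-1 motif TGANTCA and the T-box motif AGGTGTGA. The GAS letters stood in the Il7r region alone, at bases -142 to -134 (7.02% of all 32851 listed promoters hold a match). The RefSeq start site of Il7r lies 300 nt downstream of its GENCODE start. By GENCODE this window therefore lies inside the gene and not before it. For Il4ra the RefSeq start lies 151 nt downstream of the GENCODE start. The ETS letters stood in Il2rg (-17 to -11) and Il15ra (-104 to -98), against 6.91% of all promoters. Il21r held the FOXO letters (-38 to -32, 3.17% of all promoters), which overlap a RUNX match at -33 to -28. RUNX letters also stood in Il2rg and in Il9r (14% of all promoters). The other motifs, AP-1 and T-box (6.75% and 1.12% of all promoters), had no match in these 7 windows. A match is a stretch of letters and not a shown binding site.

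Total counts were 11544960 to 14431533 per library. The cells carried the transcripts of CD8+ T cells and low levels of the transcripts that define other cells. The 6 CD8 T cell markers summed to between 3679 and 5119 CPM (read counts scaled to library size), while Cd4 was between 0 and 0.52 CPM, and Ncr1, Flt3, Csf1r and S100a8 were all below 0.6 CPM. The most abundant members of other marker lists were Zbtb7b (51.2 to 78.4 CPM), Cd79b (23.2 to 45.2 CPM), Klrb1c (29.6 to 50.4 CPM), Itgam (73.1 to 117 CPM), Itgax (380.0 to 1004 CPM) and Gata3 (124.2 to 190.0 CPM). Activated CD8+ T cells are known to express Itgax, Itgam and Gata3 as well. The 8 B cell markers summed to 61.8 and 69.0 CPM in the libraries numbered 1 and to 24.5 and 26.9 CPM in those numbered 2, so they followed the replicate number. All 8 were detected, and Ms4a1 and Pax5 were at 0 in the libraries numbered 2. B cells also express Il2rg, Il4ra and Il21r, and the part of B cell RNA in these values was not tested. The 6 NK cell markers summed to 84.1 and 59.4 CPM in SPF and to 48.0 and 43.1 CPM in GF, with Klra8 at 0 in all 4 libraries and Ncr1 at 0 in 1. Klrb1f went the other way, with 3.14 and 3.46 CPM in SPF and 3.96 and 3.86 CPM in GF. Transcript length also went with the difference between replicates. Over 11194 genes (not independent points), Spearman's rho of exon length with replicate 2 minus replicate 1 was 0.51 in SPF and 0.46 in GF. For GF minus SPF, rho was 0.37 between the libraries numbered 1 and 0.26 between those numbered 2. For GF replicate 1 minus SPF replicate 2 it was -0.31. Length thus also went with differences between GF and SPF libraries, but the sign depended on which libraries were compared. In bulk RNA, fewer cells of a type and less RNA per cell cannot be told apart.

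The shared gamma chain and the IL-7 receptor alpha chain had the highest levels of the family per transcript length, and the private affinity chains the lowest of the tested ones. On the scale of CPM per kilobase of exons, Il2rg had a level of 401 ± 90.0 in SPF and 319 ± 8.9 in GF (SD, n = 2 each), and Il7r 361 ± 44.1 and 319 ± 15.5. Both lay above 99.2% of 11194 tested genes with a length. Il2rb followed at 166 ± 28.6 and 180 ± 25.4, above 98% of genes. Then came Il21r at 36.5 ± 0.2 and 34.5 ± 3.1, Il4ra at 26.1 ± 8.6 and 28.9 ± 0.3, Il2ra at 9.61 ± 0.46 and 10.5 ± 1.4, and Il15ra at 5.21 ± 0.56 and 5.01 ± 0.07. The order from the third place down was the same in each of the 4 libraries. The first pair exchanged places, with Il2rg on top in both libraries numbered 1 and Il7r in both numbered 2, and these neighbours did not differ beyond their spread. With coding length in place of exon length, Il7r came before Il2rg in the mean of the 4 libraries, and the other 6 places of that mean did not change. In single libraries the order of Il21r, Il4ra and Il2ra did change by coding length. Il4ra was 1.04 times Il21r in SPF replicate 2 and in GF replicate 1, and below it in the others.

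**Figure D1:**
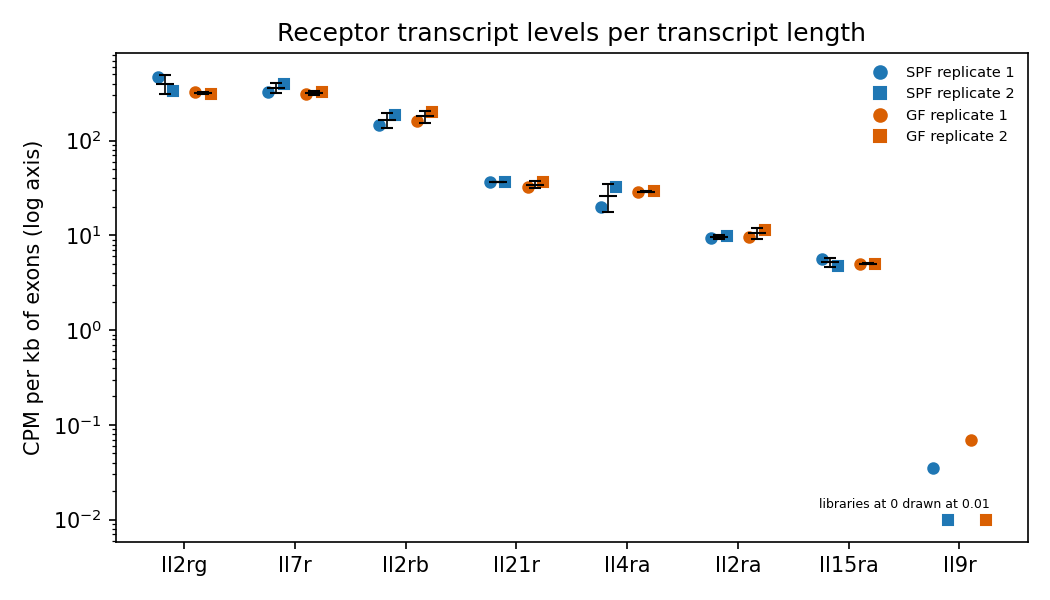
Level of each receptor gene on a log axis, in CPM per kilobase of exons, with 1 point per library (circles replicate 1, squares replicate 2) and the mean and SD of each group in black. Il2rg, Il7r and Il2rb sit between 146 and 464, Il15ra near 5, and Il9r at or near 0, where libraries at 0 are drawn at 0.01 and no mean is drawn.

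No receptor gene passed the test between GF and SPF recipients. In edgeR's quasi-likelihood test with Benjamini-Hochberg adjustment over 11271 genes, 0 of the 7 tested receptors were called, against 0% of all tested genes, and at an unadjusted p under 0.05 also 0 of 7, against 3.22% of all genes. The median log2 fold change (GF minus SPF) was -0.06 over the 7 receptors and -0.00 over all tested genes, with 3 receptors above 0 and 4 below. The 95% intervals of the 7 log2 fold changes reached from -0.98 to 0.86 in all. Each of the 7 lay within -1 and 1, that is within a 2-fold change, as did those of 46.5% of all tested genes. Both GF values exceeded both SPF values for 0 of 7 receptors, against 16.8% of all genes, and were lower than both for 2 of 7, Il2rg and Il7r, against 16.4% of all genes. With 2 values a group, the smallest two-sided p of an exact permutation test is 0.33.

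**Figure D2:**
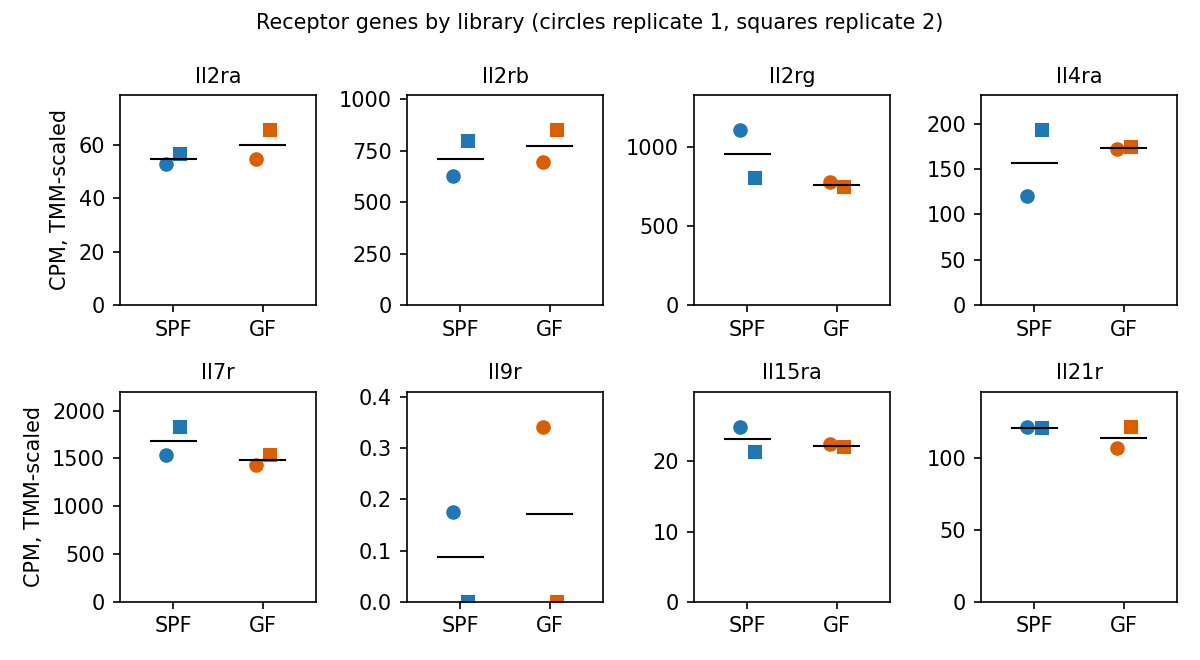
CPM of each of the 8 receptor genes in every library, 1 panel per gene, with axes from 0 and the group mean as a line. Il2rg of SPF replicate 1 and Il4ra of SPF replicate 1 stand apart from the other 3 points of their panels.

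Il2rg, the shared chain, had 1108 CPM in SPF replicate 1 and 805 CPM in SPF replicate 2, against 777 and 747 CPM in GF. The first SPF library was high, and the other 3 lay close together, with a gap of 27.2 CPM between the groups. The log2 fold change was -0.33 (SE 0.26, 95% interval -0.98 to 0.33, adjusted p = 0.86 by edgeR). Without SPF replicate 1 it was -0.08. Il2rg has the shortest exons of the 8 genes (2387 nt, against a median of 4409 nt over tested genes). In the plot of values with the length trend removed, its deviation in SPF replicate 1 from the mean of the 4 libraries was 0.14 on the log2 scale, against 0.39 as measured, and the fold change with the length correction was -0.16 (SE 0.15). NK cells also express Il2rg, and the sums of their markers given above had the same order over the 4 libraries, highest in SPF replicate 1 and lowest in GF replicate 2. Not all of these markers went that way, as Klrb1f was higher in GF and Ncr1 and Klra8 were at or near 0. The part of NK cells in the Il2rg values was not tested.

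Il7r, which receives IL-7, had 1538 and 1829 CPM in SPF and 1435 and 1537 CPM in GF. SPF replicate 2 was high, and the groups were kept apart by a gap of only 0.78 CPM. The log2 fold change of -0.18 (SE 0.24) had a 95% interval of -0.79 to 0.43. Its exons (4663 nt) are near the median length, and with the length correction the fold change was -0.20 (SE 0.15, adjusted p = 0.74 by edgeR). Crlf2 pairs with the same chain to form the receptor for TSLP. It had 58.2 and 37.2 CPM in SPF and 60.8 and 44.2 CPM in GF, higher in the libraries numbered 1 in both groups.

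Il2rb, which carries the IL-2 and IL-15 signal beside the gamma chain, had 625 and 798 CPM in SPF and 697 and 851 CPM in GF. In both groups replicate 2 was higher, by 0.35 in SPF and 0.29 in GF on the log2 scale, and the groups overlapped. The fold change was 0.12 (SE 0.25, interval -0.52 to 0.76), and it was -0.04 without SPF replicate 1 and -0.03 without GF replicate 2. Il2ra, the high-affinity chain CD25 of recently activated T cells, had 53.0 and 56.7 CPM in SPF and 54.7 and 65.6 CPM in GF. These groups overlapped too, with a log2 fold change of 0.13 (SE 0.21, interval -0.40 to 0.66). Per length, Il2ra amounted to 0.064 and 0.053 of Il2rb in SPF and to 0.059 and 0.058 in GF, so the beta chain transcript exceeded the alpha chain transcript in all 4 libraries. Il15ra had 24.9 and 21.4 CPM in SPF and 22.5 and 22.0 CPM in GF, and its log2 fold change was -0.06 (SE 0.23, interval -0.64 to 0.53).

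Il4ra varied most among the receptors. It had 120 and 193 CPM in SPF and 172 and 175 CPM in GF, a ratio of 1.61 between the highest and the lowest library, where the median over 8560 tested genes of at least 10 CPM was 1.51. SPF replicate 1 alone was low, and both GF libraries lay between the SPF libraries. The log2 fold change of 0.15 (SE 0.28, interval -0.57 to 0.86) was -0.15 without SPF replicate 1 and 0.53 without SPF replicate 2. Length did not remove that low value, which was -0.44 from the mean as measured and -0.30 with the length trend removed. Il13ra1, which joins Il4ra in the alternative receptor for IL-4 and IL-13, was at 0 in 3 libraries and at 0.07 CPM in GF replicate 1, and Il13ra2 was at 0 in all 4.

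Il21r, the receptor for IL-21, varied least, with 122 and 121 CPM in SPF and 107 and 122 CPM in GF and a ratio of 1.14 between the highest and the lowest library. Only GF replicate 1 was somewhat low. Its log2 fold change was -0.08 (SE 0.20, interval -0.58 to 0.42). Il9r had 2 reads in SPF replicate 1 and 5 reads in GF replicate 1 and none in the libraries numbered 2. The exact Poisson 95% intervals, which cover counting error only, were 0.021 to 0.63 CPM and 0.11 to 0.82 CPM. The 3 counts that a count of 0 allows come to 0.214 and 0.208 CPM in the others, so no difference between recipients was detectable at this depth. The B cell markers were also higher in the libraries numbered 1, and their part in these reads was not tested.

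**Figure D3:**
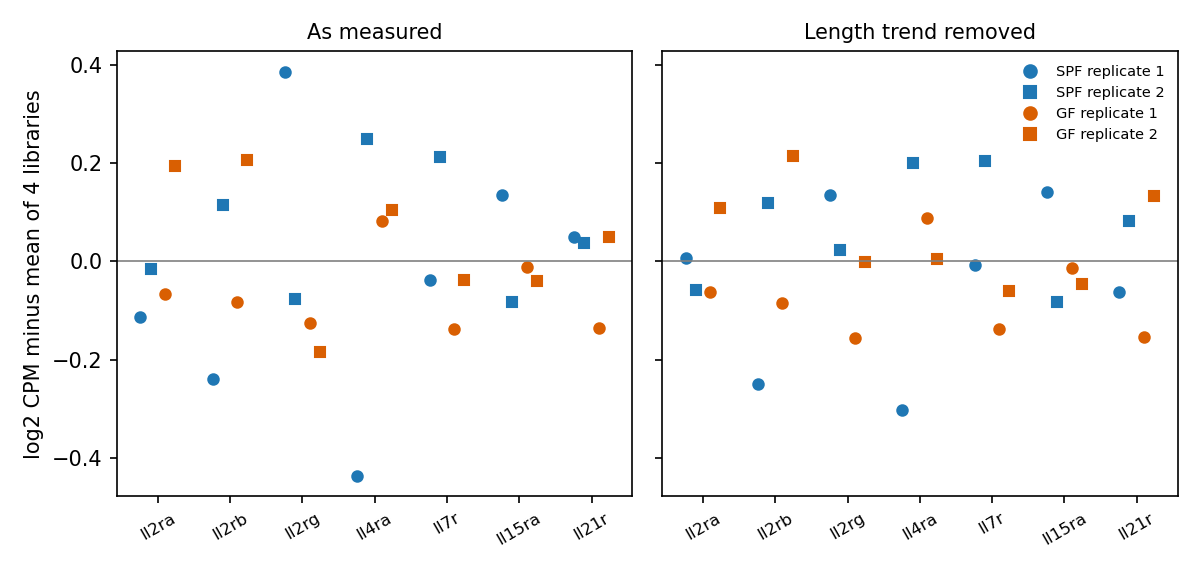
Deviation of each tested receptor gene from its mean over the 4 libraries, in log2 CPM, as measured (left) and with the trend on transcript length of each library removed (right). The high point of Il2rg in SPF replicate 1 moves from 0.39 to 0.14, and the low point of Il4ra from -0.44 to -0.30.

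Set against the shared chain in the same library, all 6 other tested receptors had their lowest ratio in SPF replicate 1. Per length, Il7r amounted to 0.71 and 1.16 of Il2rg in SPF and to 0.94 and 1.05 in GF. The ratio of Il2rb was 0.31 and 0.55 in SPF and 0.50 and 0.63 in GF. Summed, the 5 chains that pair directly with the gamma chain (Il2rb, Il4ra, Il7r, Il9r and Il21r) came to 1.15 and 1.92 times Il2rg in SPF and to 1.63 and 1.90 times in GF. The partner transcripts thus exceeded the gamma chain transcript in all 4 libraries by exon length. With the longest transcript as the length, SPF replicate 1 had a ratio of 0.99 and the others 1.39 to 1.64. The low ratios of SPF replicate 1 stand beside its high Il2rg value and the length trend given above, and their share in it was not tested beyond those values.

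**Figure D4:**
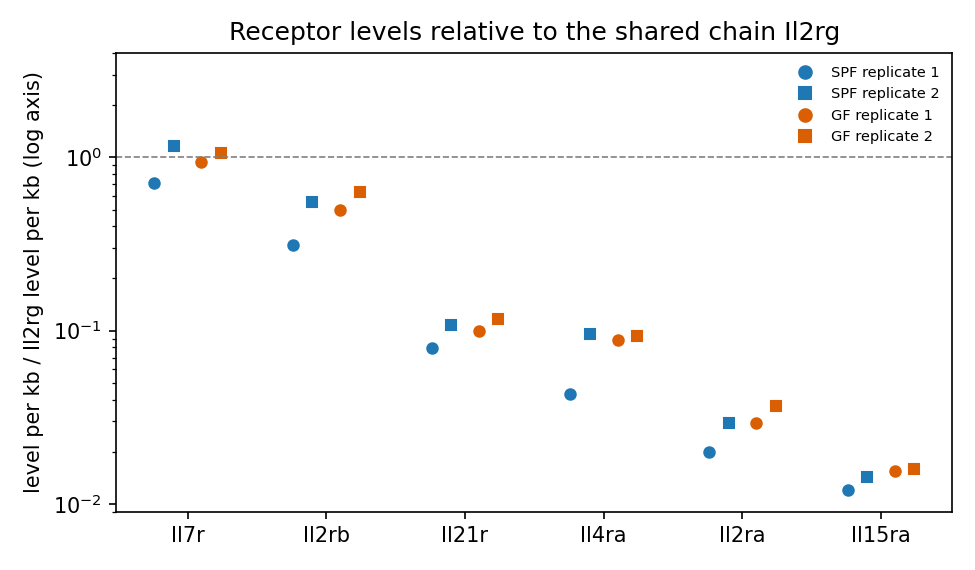
Level per kilobase of 6 receptors divided by the level of Il2rg in the same library, on a log axis, 1 point per library, with a dashed line at equal levels. SPF replicate 1 is the lowest point of every gene, and Il7r is the one gene that reaches the line.

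The ratio of Il7r to Il2rb per length, a comparison chosen after its values were seen, was 2.26 and 2.11 in SPF and 1.89 and 1.66 in GF. The GF ratios were the lower pair. The log2 ratio of the group means was -0.30, and it was between -0.40 and -0.21 with any 1 library left out and -0.33 with the length trend removed. As the GF ratios were already the lower pair, leaving out 1 library could not reverse the sign, so that range is no support for the difference. Of the 21 pairs among the 7 tested receptors, 5 had ratios that did not overlap between the groups, against 34.2% of all pairs of tested genes. Il2rb, Il2ra and Il4ra against Il7r made up 3 of the 5, and the others were Il2ra against Il21r and Il2rg against Il15ra. That share is no higher than the background.

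Some genes outside the family had nearly the same pattern over the 4 libraries. Likeness was measured as the root mean square difference of log2 CPM, centred on each gene's mean, over 4 libraries and 8553 genes of at least 10 CPM. A search for the closest of so many genes on only 4 values finds small differences by its design. The matches are therefore a description and do not show shared regulation. Closest to Il2rg were 4930481A15Rik (0.008) and Gtf2e2 (0.011), to Il7r Ipo5 (0.013) and Rhot1 (0.018), and to Il2rb Ankrd23 (0.011) and Zfp46 (0.013). Slc44a2 (0.010) and Mov10 (0.012) were closest to Il2ra, and Zfp251 (0.012) and Tex261 (0.030) to Il4ra. For Il15ra they were Hs2st1 (0.002) and Dbr1 (0.006), and for Il21r Kpna4 (0.012) and Ddx39b (0.013).

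Transcripts of the family's ligands were absent or low in these cells. Il2, Il9, Il21 and Tslp had 0 reads in all 4 libraries, which allows up to 0.21 to 0.26 CPM. Il4, Il7 and Il13 were at most 0.14 CPM. Il15 had 2.10 and 0.92 CPM in SPF and 0.61 and 2.0 CPM in GF, with no order by recipient.

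Genes around the receptors (the ligand and partner receptor above, signalling and feedback genes, target genes and regulators of receptor genes) were compared by lists, of which 0 of 52 tested genes passed in either direction (edgeR quasi-likelihood test, 0% of all tested genes). Without SPF replicate 2, 3 passed (Rel, Tyk2 and Tnfrsf9), where 11.8% of all tested genes did. Of 9 JAK and STAT genes, 8 had log2 fold changes above 0 (median 0.22), against 5597 of all 11271 tested genes. The GF values were the higher pair in 2 of the 9 (16.8% of all genes) and the lower pair in 1 (16.4% of all genes). Whether such counts by direction differ from the background was not tested. Jak3, the kinase bound to the gamma chain, had 163 and 266 CPM in SPF and 217 and 378 CPM in GF, higher in replicate 2 of both groups, with overlapping groups and a log2 fold change of 0.47 (SE 0.38). That value was 0.16 without SPF replicate 1, 0.86 without SPF replicate 2, 0.82 without GF replicate 1 and 0.016 without GF replicate 2. Stat5b, a main STAT of IL-2, IL-7 and IL-15, had 149 and 188 CPM in SPF and 191 and 224 CPM in GF. The GF values were the higher pair, as for Stat5a, and the fold change of Stat5b was 0.30 (SE 0.23, adjusted p = 0.86). Of 7 tested adapter and PI3K genes, 6 were above 0, against the same background of 5597 of 11271. Akt1, a kinase downstream of PI3K, had 181 and 177 CPM in SPF and 255 and 226 CPM in GF, with groups apart. Shc1, an adapter on the beta chain, had 87.7 and 119.9 CPM in SPF and 119.8 and 136.5 CPM in GF.

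Among the 7 feedback genes, Cish had the smallest unadjusted p and is named for that reason. In the same edgeR test, 3.22% of all tested genes had an unadjusted p under 0.05. Cish encodes an inhibitor that STAT5 induces and that acts back on cytokine receptor signalling. It had 50.1 and 42.3 CPM in SPF and 66.2 and 81.4 CPM in GF. The GF values were the higher pair, with a log2 fold change of 0.68 (SE 0.23, interval 0.10 to 1.25, unadjusted p = 0.028, adjusted p = 0.86 by edgeR), so it did not pass over all genes. Ptpn6 (SHP-1), a phosphatase that restrains receptor signalling, had 489 and 517 CPM in SPF and 347 and 446 CPM in GF, with GF below. Socs1, Socs2 and Socs3 had overlapping groups.

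Of 14 genes known as targets of STAT5 signals, 7 had fold changes above 0 and 7 below, with a median of 0.01, and the GF values were the lower pair in 4 (16.4% of all genes) and the higher pair in 0 (16.8% of all genes). Prf1 (perforin) had 77.5 and 103.8 CPM in SPF and 57.1 and 68.3 CPM in GF, and the costimulatory receptor gene Tnfrsf9 (4-1BB) 9.52 and 6.01 CPM against 2.60 and 4.08 CPM, a log2 fold change of -1.21 (SE 0.43, adjusted p = 0.86). The others of the 4 were Ccnd3, which encodes a cyclin, and Mcl1, a survival gene with 687 and 550 CPM in SPF and 519 and 537 CPM in GF (log2 fold change -0.23, SE 0.23). The survival genes Bcl2, Bcl2l1 and Pim2 had overlapping groups. Of 13 transcription factors known to act at receptor genes of this family, 10 had fold changes above 0, against 5597 of all 11271 tested genes. The GF values were the higher pair in 5 of the 13 (16.8% of all genes) and the lower pair in 2, Eomes and Bcl6 (16.4% of all genes). Eomes, which acts at Il2rb, had 16.9 and 16.2 CPM in SPF and 12.6 and 9.30 CPM in GF. Bcl6 had 7.16 and 6.85 CPM against 2.12 and 4.44 CPM. NK cells also express Prf1, Tnfrsf9 and Eomes, and the part of the lower NK marker sums of GF in these values was not tested.

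**Figure D5:**
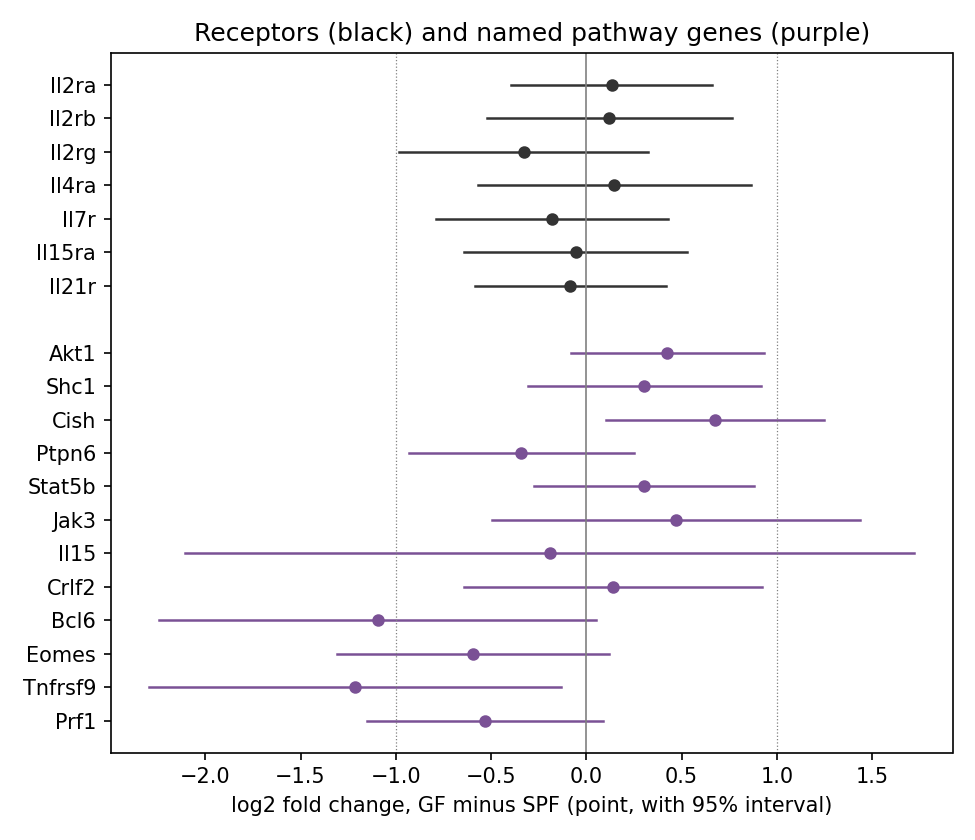
Log2 fold change (GF minus SPF) with its 95% interval for the 7 tested receptor genes (black) and 12 tested pathway genes (purple), with dotted lines at -1 and 1. All receptor intervals include 0 and stay inside the dotted lines, and among the pathway genes the intervals of Cish and Tnfrsf9 do not include 0.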

How the data were processed

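RNA of gBT-I cells from SPF and GF recipients (2 libraries each) was sequenced on an Illumina GAIIx from TruSeq libraries, per the labels' protocols. The authors deposited whole-number read counts per gene, 1 column per library. The submitters' processing notes name mm10, CASAVA, TopHat, Picard, featureCounts, Subread and edgeR. No versions, settings or annotation were given in the sources used here. Columns were matched to samples by name.

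The fit over all genes used edgeR 4.0.16 (R 4.3.3) with TMM scaling, filterByExpr and the quasi-likelihood F test for GF minus SPF (Benjamini-Hochberg adjustment over 11271 genes, threshold 0.05). CPM use TMM-scaled library sizes, and marker sums plain totals. Standard errors are the fold change over the square root of F, and intervals use the test's degrees of freedom. Exon lengths and positions came from GENCODE M21 (GRCm38, the assembly of mm10; 23683 of 24062 symbols matched), promoters from RefSeq (GRCm38.p6). The length correction removes a loess trend (span 0.3) per library.

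Members and lists were chosen with earlier results of these data known. Named pathway genes are the 2 of each list with the smallest p and any detected ligand; others are members of a list named for context and were chosen after their values were seen. The most abundant gene of 1 marker list is not reported here. The ETS letters were chosen after a shorter form had matched most promoters. The test was run on simulated data with less spread than these (edgeR's common dispersion 0.017, against 0.076 in the main fit). That run therefore cannot show how well the test finds changes here. Alternatives covered scaling, filters, DESeq2 1.42.0, limma-voom (limma 3.58.1), the edgeR exact test, length, the replicate number as a block and each library left out. Figures used matplotlib 3.10.9.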

Additional observations from a re-analysis of the deposited data

How the results depend on the processing

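No receptor gene was called under the 14 alternative fits, nor with an adjusted p threshold of 0.1. The smallest adjusted p of a receptor was 0.24, for Il2rg with the replicate block. Il2rg and Il7r stayed below 0 in all 14 alternative fits (-0.54 to -0.08 and -0.30 to -0.05). For both genes the GF values already lay below the SPF values, so leaving out a library could hardly reverse the sign. Their constant sign therefore adds little to that order. The other 5 changed sign only when a library was left out, with ranges of -0.043 to 0.31 for Il2rb, -0.0046 to 0.26 for Il2ra, -0.15 to 0.53 for Il4ra, -0.16 to 0.059 for Il15ra and -0.18 to 0.0061 for Il21r. Il15 ranged from -1.27 to 0.50 and Crlf2 from -0.15 to 0.50 with a library left out, and with the length correction Il15 was 0.067 and Crlf2 0.44 (unadjusted p = 0.038, adjusted p = 0.74 by edgeR). Leaving out a library leaves a group of 1, assumed to vary like the other group.

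Over all genes, DESeq2 called 9 and the edgeR exact test 9, and leaving out a library called between 0 and 1329 (1329 without SPF replicate 2, 19 without SPF replicate 1). With the replicate block 1206 genes were called, and 1291 with the block and the length correction. The replicate numbers pair no animals by the labels; the difference by number correlated between SPF and GF (r = 0.71 across 11271 genes, which are not independent replicates). Of the pathway genes, 5 passed with the replicate block (Cish at 0.67, adjusted p = 0.016, and Rel higher, Prf1, Bcl6 and Tnfrsf9 lower), 8 with the block and the length correction (Rel, Akt1, Gzmb, Jak3 and Cish higher, Bcl6, Ccnd3 and Tnfrsf9 lower), and 0 to 3 with a library left out (Rel, Tnfrsf9 and Tyk2, without SPF replicate 2). The cause of these changes was not tested. With the replicate block, 5 of 52 tested pathway genes stand beside 1206 of all 11271 tested genes. With the block and the length correction, 8 of 52 stand beside 1291 of 11271. Whether pathway genes passed more often than other genes was not tested, so these names list what passed and show no excess over the background. Depth limits Il9r, which had too few reads to be tested.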
